A study of Mus musculus with 60 samples.

Results

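The genes described here are 10 members of the TGF-beta, activin and BMP pathways: *Inhba*, *Inhbb*, *Nodal*, *Gdf3*, *Tgfb2*, *Bmp4*, *Tgfbr3*, *Lefty1*, *Lefty2* and *Smad7*. They are 10 of the 27665 transcripts in the table of nascent RNA counts, 1 transcript for each gene, found by the gene symbol that GENCODE M21 gives to the Ensembl transcript identifier. The genes were chosen with measured values of these libraries known, for their dependence on RAD21, CTCF and CBP/p300 in mouse embryonic stem cells (mESCs) and neuronal progenitor cells (NPCs). Their values in all comparisons are therefore a description and carry no p value.

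In GRCm38 the whole counted gene bodies lie at chr13:16011851-16031621 (*Inhba*, plus strand), chr1:119415465-119422248 (*Inhbb*, minus), chr10:61417972-61425338 (*Nodal*, plus), chr6:122605403-122610087 (*Gdf3*, minus), chr1:186622792-186705989 (*Tgfb2*, minus), chr14:46383520-46390669 (*Bmp4*, minus), chr5:107106570-107289629 (*Tgfbr3*, minus), chr1:180935022-180938400 (*Lefty1*, plus), chr1:180893108-180899103 (*Lefty2*, plus) and chr18:75367529-75395935 (*Smad7*, plus).

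TGF-beta, activin, nodal and BMP ligands are secreted dimers. A ligand brings type II and type I receptor kinases together, the type I receptor phosphorylates SMAD proteins, and these enter the nucleus with SMAD4 and act on target genes. Activin, nodal and TGF-beta signal mainly through SMAD2 and SMAD3, whereas BMPs signal mainly through SMAD1, SMAD5 and SMAD9. Many targets are inhibitors of the same pathway, such as the Lefty proteins outside the cell and SMAD7 inside it. In the early embryo nodal signalling patterns the epiblast, and BMP4 is best known in mESC culture for inducing Id genes.

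Nascent RNA was measured by EU-seq, in which a 20 min pulse of 5-ethynyl uridine labels new RNA for sequencing. The treatment text of 18 libraries (CTCF AID, CTCF YF-AA and the initial RAD21 AID mESCs) names DMSO or triptolide, an inhibitor of transcription, but no title does, and whether any of them received it could not be settled. All lines were mouse ES cell lines, or NPCs derived from one of them through an epiblast stage kept in Activin A and FGF2, and the mESCs were grown with LIF and 2i inhibitors. In RAD21 AID cells the cohesin subunit RAD21 carries an auxin-inducible degron, so that indole-3-acetic acid (IAA, 500 µM) leads to its degradation. RAD21 AID mESCs were sequenced without and with IAA for 4 h. There were 2 libraries a group at first and 12 a group in an additional set. In the additional set the libraries numbered 1 of both groups have batch code CC52 and all others CC53. The RAD21 AID NPCs comprise 2 controls, 2 libraries at each of 3 times with IAA (1, 2 and 4 h), and 2 treated for 1 h with A-485 (10 µM), which blocks the catalytic activity of CBP and p300, acetyltransferases of enhancer histones. For CTCF AID mESCs there are 4 controls and 4 libraries with IAA for 6 h, with 2 of each group stranded and 2 unstranded. CTCF YF-AA mESCs carry CTCF mutated in its cohesin-binding motif and fused to a dTAG degron, and were left untreated or kept in dTAG-13 (200 nM per the labels) for 2 or 4 h, with 2 libraries a group. A further line carries one CTCF allele without its N terminus (dN, degraded by AGB1, 100 nM) and one without its C terminus (dC, degraded by dTAG-13, 100 nM per the labels), and was treated for 2 h with AGB1, dTAG-13, both or neither, again with 2 libraries a group. The headers of the count columns give 200 nM dTAG-13 for the dN and dC line, so that this dose is uncertain. Each model is 1 line, so that clone and allele cannot be told apart. Cells without a degron treated with IAA were not analysed here.

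The 60 libraries held 4027449 to 21898781 counts each. Summed markers fitted the labels: 7 naive mESC markers summed to 3125 to 6828 TPM (length-scaled transcript abundance) in mESC libraries and 32.9 to 106 in NPC libraries, and 7 NPC markers to 82.3 to 247 and 1227 to 3148 TPM. *Fabp7*, an NPC marker, had no count in the control mESC libraries of the additional RAD21 experiment. The stranded libraries numbered 2 of CTCF AID, one control and one IAA, stood apart from the others of their groups in *Lefty1* and *Lefty2* and are followed separately. A degron acts on protein, so that the RNA of the targeted gene is no check of depletion.

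Promoter sequences were available for 5 of the 10 genes in RefSeq (GRCm38.p6). Those of the *Inhba*, *Inhbb*, *Tgfb2* and *Bmp4* genes are shown 5′ to 3′, since these are the 4 ligand genes that were lower after RAD21 depletion in at least one cell type. Each window runs from 250 bases before the start site to 50 after it. Capitals mark matches to short motifs, searched on both strands. One motif was the SMAD-binding element, spelled CAGAC. Another was the core of the TATA box, spelled TATAAA. Also marked was the GC box that SP family factors bind, spelled GGGCGG.
*Inhba*, chr13:16011601-16011900, plus strand: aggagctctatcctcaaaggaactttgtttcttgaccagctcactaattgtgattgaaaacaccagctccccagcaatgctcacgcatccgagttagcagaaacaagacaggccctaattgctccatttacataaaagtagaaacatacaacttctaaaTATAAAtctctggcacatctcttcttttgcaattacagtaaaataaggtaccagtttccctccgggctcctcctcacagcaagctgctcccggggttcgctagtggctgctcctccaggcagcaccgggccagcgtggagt
*Inhbb*, chr1:119422199-119422498, minus strand: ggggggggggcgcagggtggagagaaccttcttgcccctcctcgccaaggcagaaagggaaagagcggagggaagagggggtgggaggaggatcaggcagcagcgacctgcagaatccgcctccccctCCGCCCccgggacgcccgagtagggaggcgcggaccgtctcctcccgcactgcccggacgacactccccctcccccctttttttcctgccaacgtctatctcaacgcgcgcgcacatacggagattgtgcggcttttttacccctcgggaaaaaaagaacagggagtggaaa
*Tgfb2*, chr1:186705940-186706239, minus strand: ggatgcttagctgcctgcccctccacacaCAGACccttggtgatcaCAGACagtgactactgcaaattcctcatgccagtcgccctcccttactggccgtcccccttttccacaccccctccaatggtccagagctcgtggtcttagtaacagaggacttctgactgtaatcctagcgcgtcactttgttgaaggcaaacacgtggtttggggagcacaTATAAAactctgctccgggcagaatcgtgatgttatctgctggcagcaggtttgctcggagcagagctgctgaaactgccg
*Bmp4*, chr14:46390620-46390919, minus strand: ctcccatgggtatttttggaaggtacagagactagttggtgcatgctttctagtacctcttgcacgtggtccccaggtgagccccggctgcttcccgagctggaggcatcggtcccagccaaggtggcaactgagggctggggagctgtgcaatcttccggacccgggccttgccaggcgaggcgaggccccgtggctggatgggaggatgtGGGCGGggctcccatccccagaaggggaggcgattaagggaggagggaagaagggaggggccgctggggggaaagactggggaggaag
The *Inhba* and *Tgfb2* windows each held 1 TATAAA match, which 13.6% of 32851 RefSeq promoters of this length also held. The *Tgfb2* window held 2 CAGAC matches, and CAGAC was present in 49.6% of all promoters. *Inhbb* and *Bmp4* each had 1 GGGCGG match, found in 35.7% of promoters. The fifth promoter, that of *Nodal*, had no match to any of these 3 motifs. The core of the CTCF motif, also searched, had no match in the 5 windows, beside 8.61% of all promoters. A match is a run of letters and not a measured binding site.

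The 10 genes differed in level between the cell types. Levels between genes are compared per length, as TPM over the counted gene body. In the 12 additional control libraries of mESCs, *Gdf3* (a nodal-related ligand) had 315 ± 8.88 TPM and *Smad7* (an intracellular inhibitor of the receptors) 313 ± 10.7 TPM (SD), and their ranges overlapped. *Nodal* followed with 203 ± 11.7 TPM. *Lefty2*, a secreted antagonist of nodal, had 82.1 ± 8.95 TPM and *Bmp4* 65.2 ± 3.03 TPM, with overlapping ranges. *Lefty1*, the neighbouring paralog of *Lefty2*, had 13.3 ± 2.76 TPM and *Inhbb*, which encodes the beta B subunit of activin, 12.2 ± 1.67 TPM, again with overlapping ranges. *Tgfbr3*, the TGF-beta co-receptor betaglycan, had 3.21 ± 0.287 TPM and *Tgfb2* 0.837 ± 0.175 TPM. *Inhba*, which encodes the beta A subunit of activin, had 0 counts in 11 of these libraries and 1 count in the other.

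In the 2 NPC controls the order was different. *Bmp4* was highest with 90.9 ± 7.79 TPM, followed by *Smad7* with 66.3 ± 0.302, *Inhba* with 59.7 ± 5.23, *Tgfb2* with 34.0 ± 1.01, *Tgfbr3* with 26.0 ± 0.353 and *Inhbb* with 11.2 ± 0.344 TPM (SD, n = 2). *Lefty1* (4.15 ± 0.444), *Nodal* (1.89 ± 0.317), *Gdf3* (0.755 ± 0.498) and *Lefty2* (0.373 ± 0.0834 TPM) were below this, and the ranges of *Gdf3* and *Lefty2* overlapped. NPCs thus had both activin subunit genes, *Inhba* above *Inhbb*, whereas *Inhba* was at or near 0 in mESCs. *Inhbb* also differed between mESC lines and experiments, with 84.8 ± 18.7 TPM in the CTCF YF-AA controls, 12.3 ± 2.62 in the dN and dC line, 3.22 ± 1.48 in the initial RAD21 AID controls (SD, n = 2 each) and 2.73 ± 1.16 in the CTCF AID controls (SD, n = 4). Line, clone and experiment cannot be told apart in these levels. *Lefty1* was at 0 in both CTCF YF-AA controls.

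**Figure D1:**
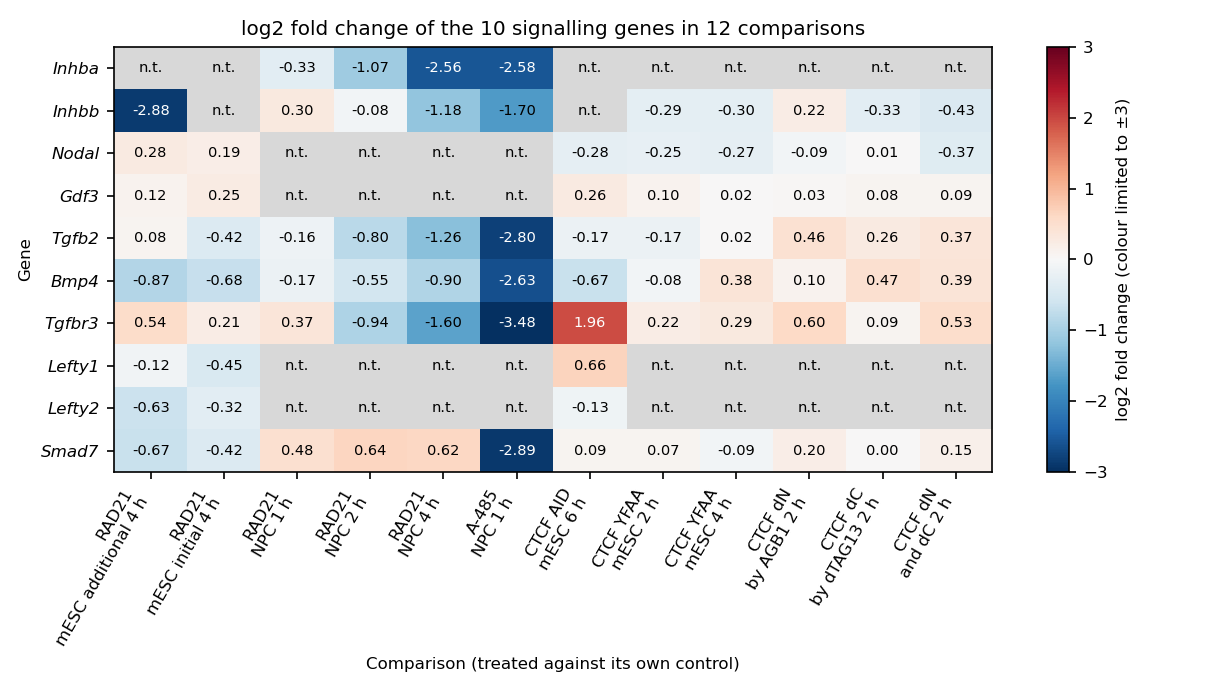
Log2 fold change of each gene (rows) in the 12 comparisons of treated with control libraries (columns), as numbers and as colour, with n.t. for genes not tested. The deepest decreases are *Inhbb* in mESCs after RAD21 depletion (−2.88), *Inhba* in NPCs after RAD21 depletion (−2.56) and the 6 tested genes after A-485 (−1.70 to −3.48), and the largest increase is *Tgfbr3* after CTCF AID depletion (1.96).

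Every comparison was fitted with edgeR over all genes whose mean count exceeded 20 in 1 group or more. Log2 fold changes are relative to the median of expressed genes. Called genes are those that differed by 1.3-fold or more at an adjusted p below 0.05. For the 10 genes, a call is given as a description, and so is a lack of overlap between groups. The share of all genes without overlap was not computed for any comparison. Values per library are CPM (reads of the gene relative to the TMM-scaled library total).

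After 4 h of RAD21 depletion in mESCs *Inhbb* was lower by the most among these genes, and *Bmp4*, *Smad7* and *Lefty2* were also lower, whereas *Tgfbr3* was higher. In the additional experiment *Inhbb* had 3.80 (lowest), 4.78 (median) and 6.52 (highest) CPM in 12 controls and 0.249, 0.596 and 0.974 CPM in 12 IAA libraries. Every IAA library lay below every control. The log2 fold change was −2.88 ± 0.13 (SE), or 7.36-fold lower, and it rests on 2 to 20 counts per IAA library and 44 to 90 per control. *Nodal* had 78.7, 88.5 and 95.1 CPM in controls and 100.4, 106 and 112 CPM after IAA. Its groups did not overlap either, but its log2 fold change of 0.28 ± 0.02 was below 1.3-fold. *Gdf3* differed by 0.12 ± 0.02 and *Tgfb2* by 0.08 ± 0.09 on the log2 scale, with overlapping groups, and neither was called.

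*Bmp4*, the BMP ligand of the group, had 25.1, 27.4 and 30.2 CPM in controls and 12.5, 15.4 and 16.4 CPM after IAA. All IAA values were below all controls, and the log2 fold change was −0.87 ± 0.04. Among the antagonists, *Lefty2* had 22.9, 28.7 and 33.7 CPM in controls against 16.6, 18.7 and 20.9 CPM after IAA, a log2 fold change of −0.63 ± 0.05. The groups of *Lefty2* did not overlap, whereas *Lefty1* overlapped, with 1.38 to 3.70 CPM in controls and 1.82 to 3.50 CPM after IAA (log2 fold change −0.12 ± 0.12). The Lefty genes are similar in sequence and lie next to each other on chromosome 1 (*Lefty2* at 180893108 to 180899103, *Lefty1* at 180935022 to 180938400, GRCm38), so reads may have been assigned to the wrong one. *Smad7*, on chromosome 18, had 499.7, 523 and 537 CPM in controls and 312, 325 and 336 CPM after IAA (log2 fold change −0.67 ± 0.02). The co-receptor gene *Tgfbr3* moved the other way, from 30.4, 35.0 and 38.5 CPM to 47.1, 49.9 and 53.7 CPM (0.54 ± 0.03). The groups of both genes were apart.

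Of the 9 genes tested, 4 were called lower and 1 higher, while 4.84% of the 15732 genes tested were called lower and 7.44% higher. Since the genes were chosen on such values, nothing is read from this. Marker genes moved in the same libraries. The sum of the 7 naive markers went from 4915 to 5389 TPM in controls to 4110 to 4391 TPM after IAA (6 of 7 lower), the 3 trophoblast markers from 83.0 to 102 TPM to 52.3 to 61.1 TPM (1 of 3 lower) and the 4 neuron markers from 66.4 to 81.8 TPM to 84.9 to 98.9 TPM (3 of 4 higher). Their part in the result was not tested. In bulk libraries fewer cells with a gene active and less RNA per cell cannot be told apart.

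**Figure D2:**
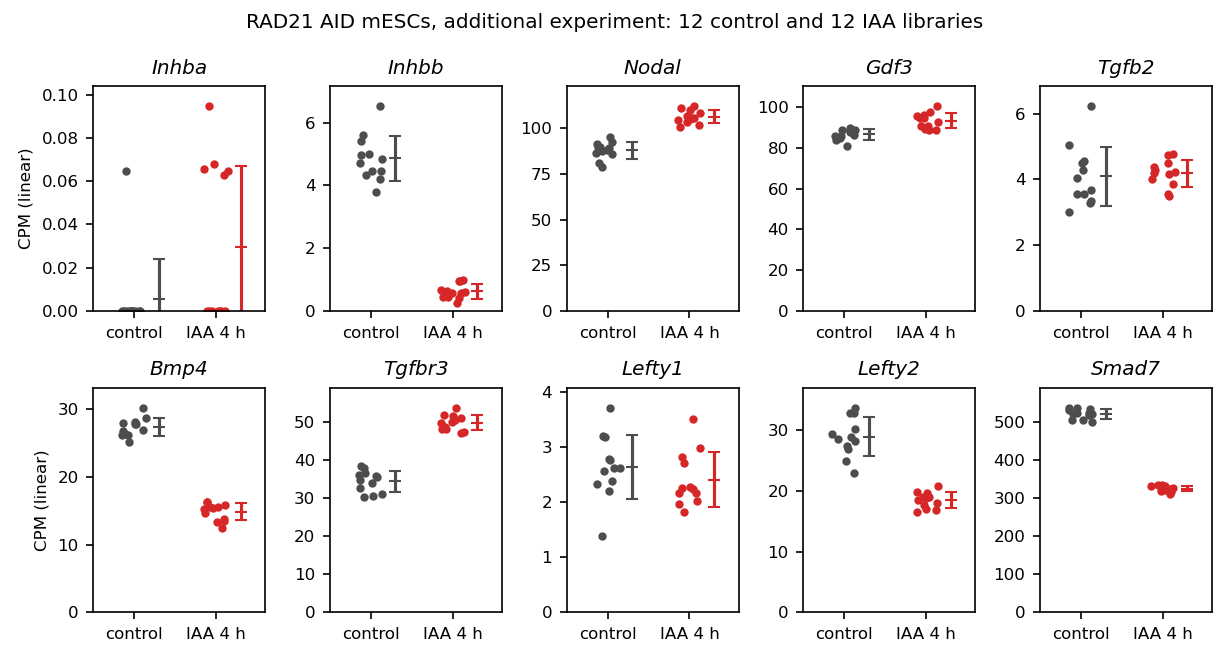
CPM (linear axis) of each gene in the 12 control (grey) and 12 IAA 4 h (red) libraries of RAD21 AID mESCs, with the mean and SD beside the points. *Inhbb* drops to below 1 CPM in every IAA library, *Bmp4*, *Lefty2* and *Smad7* lie lower and *Tgfbr3* and *Nodal* higher without overlap, and *Lefty1* and *Tgfb2* overlap.

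The initial experiment, with 2 libraries a group, had less depth for *Inhbb*. *Inhbb* had 14 and 8 counts in controls (1.41 and 0.677 CPM) and 2 and 7 counts after IAA (0.195 and 0.640 CPM), which was below the count needed for a test. *Bmp4* had 12.3 and 13.3 CPM in controls and 7.32 and 8.59 CPM after IAA (log2 fold change −0.68 ± 0.17). *Smad7* had 379.6 and 389.8 CPM against 279 and 295 CPM (−0.42 ± 0.08). Both were lower in each IAA library than in each control, and they were the 2 genes called lower of 8 tested, with none called higher. The call of *Bmp4* was lost with DESeq2 (−0.68). Over all 15177 genes, 2.61% were called lower and 2.13% higher. Without the IAA library numbered 1 the calls of *Bmp4* (−0.57) and *Smad7* (−0.38) were lost, and without the control numbered 2 *Lefty2* was called lower (−0.50). *Nodal* (0.19 ± 0.09), *Gdf3* (0.25 ± 0.10), *Tgfbr3* (0.21 ± 0.08), *Lefty2* (−0.32 ± 0.13), *Lefty1* (−0.45 ± 0.23) and *Tgfb2* (−0.42 ± 0.19) were not called.

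In NPCs *Inhba*, *Tgfb2* and *Tgfbr3* were lower with time of RAD21 depletion, and *Smad7* was higher. The 2 control libraries are shared by all NPC comparisons. After 1 h, where reads were counted in no more than the first 90 kb, *Inhba* had 70.2 and 64.0 CPM against 78.8 and 85.8 CPM in controls (log2 fold change −0.33 ± 0.06). This was under 1.3-fold. *Tgfbr3* had 157 and 169.9 CPM against 126 and 122 CPM (0.37 ± 0.05), just under 1.3-fold higher, and *Smad7* 187 and 188 CPM against 134 and 128 CPM (0.48 ± 0.04). Without the first control or the first IAA library, both *Inhba* (−0.38 and −0.39) and *Tgfbr3* (0.40 and 0.43) passed. *Smad7* was the 1 gene called of 6 tested, in the direction of 2.35% of 15860 genes, and no gene was called lower against 2.74% overall.

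After 2 h, with counts over whole genes, *Inhba* had 31.9 and 34.2 CPM against 63.8 and 69.8 CPM in controls (log2 fold change −1.07 ± 0.08). *Tgfbr3*, which had been above the controls at 1 h over its first 90 kb, had 145.3 and 145.4 CPM against 272 and 268 CPM over its whole 183060 bases (−0.94 ± 0.06). *Tgfb2* had 91.8 and 98.6 CPM against 159.6 and 161 CPM (−0.80 ± 0.07). In all these genes both IAA libraries lay below both controls, and without the share of all genes that did so nothing is read from this. *Bmp4* differed by −0.55 ± 0.09 and *Smad7* by 0.64 ± 0.07, and *Inhbb* by −0.08 ± 0.20. The call of *Bmp4* was lost without the control numbered 2 (−0.48). Thus 4 genes were called lower and 1 higher, beside 6.98% and 2.36% of 15995 genes. The counting window differs between 1 h and later times, so that the times are given side by side.

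After 4 h *Inhba* had 11.6 and 11.8 CPM, a log2 fold change of −2.56 ± 0.08 or 5.88-fold lower. *Tgfbr3* had 88.2 and 94.3 CPM (−1.60 ± 0.04) and *Tgfb2* 68.2 and 69.1 CPM (−1.26 ± 0.04). Each of these values was below those at 2 h. *Inhbb*, which had not been called at 2 h, had 1.93 and 1.96 CPM against 4.29 and 4.33 CPM in controls (−1.18 ± 0.23), on 36 and 34 counts. *Bmp4* had 20.2 and 20.5 CPM against 35.2 and 38.4 CPM (−0.90 ± 0.08). *Smad7* stayed above its controls (109 and 104 CPM), with 174 and 163 CPM (0.62 ± 0.04). At 4 h 5 of 6 genes were called lower and 1 higher, beside 10.5% and 6.20% of 16148 genes. *Nodal*, *Gdf3*, *Lefty1* and *Lefty2* had at most 29 counts in any NPC library and were not tested in NPCs.

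The NPC marker sum was 2529.9 and 2750.0 TPM in controls and 2836 and 2909.95 TPM after 4 h of IAA (5 of 7 higher), and the 3 astrocyte markers summed to 21.1 and 23.4 TPM and to 16.3 and 17.3 TPM (2 of 3 lower). The 7 naive mESC markers summed to 83.2 and 89.6 TPM in controls and 62.6 and 72.2 TPM after IAA (6 of 7 lower), and the 3 trophoblast markers to 16.8 and 17.9 TPM and to 8.36 and 9.40 TPM (1 of 3 lower, with *Cdx2* at 0 in controls). The 4 neuron markers summed to 52.0 and 53.3 TPM and to 60.3 and 65.1 TPM (2 of 4 higher). The part of these lists in the result was not tested.

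**Figure D3:**
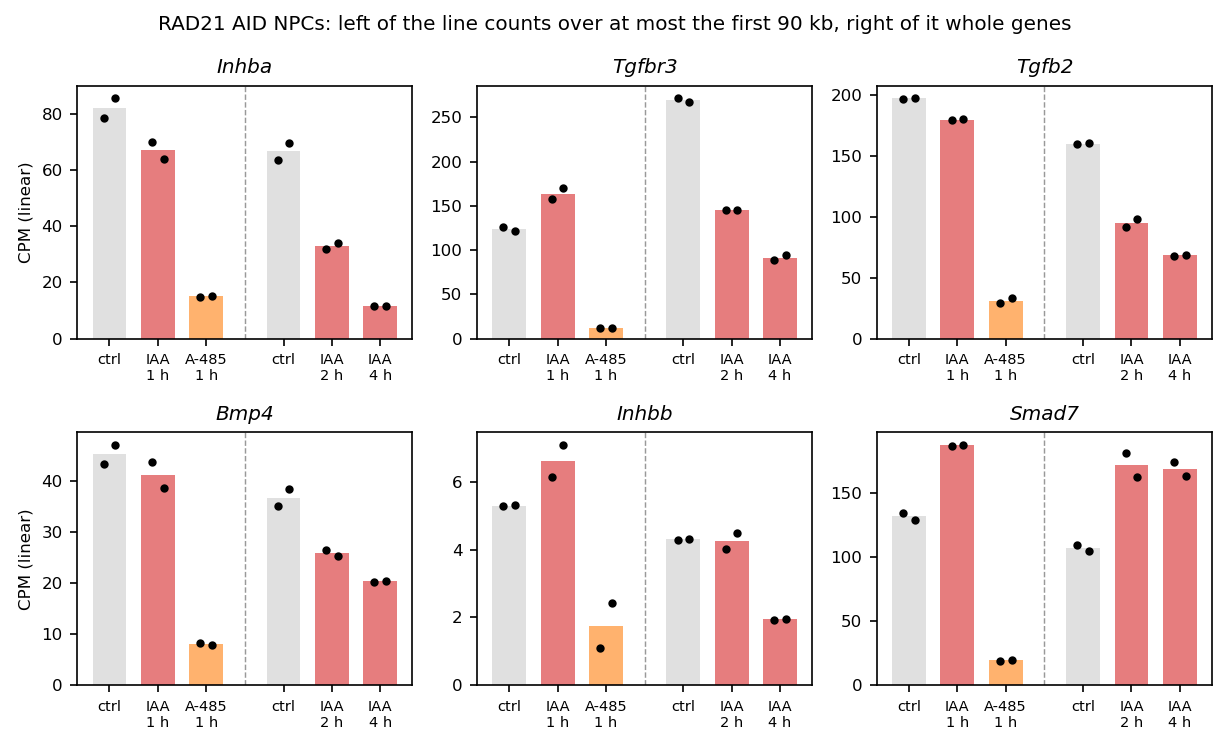
CPM (linear axis) of the 6 genes tested in RAD21 AID NPCs, with each library as a point and the mean of 2 as a bar. Left of the dashed line are counts over at most the first 90 kb (controls, IAA 1 h, A-485 1 h), and right of it whole genes (the same controls, IAA 2 h and 4 h). *Inhba* steps down from 1 h to 4 h of IAA, *Smad7* lies above its controls at each time, and each gene is lowest after A-485 in its window.

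After 1 h of CBP/p300 inhibition each of the 6 genes tested in NPCs was lower. *Tgfbr3* had 12.02 and 12.1 CPM with A-485 against 126 and 122 CPM in controls, a log2 fold change of −3.48 ± 0.08 or 11.2-fold lower. *Smad7* had 18.8 and 19.7 CPM against 134 and 128 CPM (−2.89 ± 0.07). It was the gene that lay above its controls at each time of RAD21 depletion in the same cells. After 1 h of IAA, in the same counting window as A-485, *Tgfbr3* (0.37 ± 0.05) and *Inhbb* (0.30 ± 0.18) also lay above theirs. Among the ligands, *Tgfb2* had 28.9 and 33.0 CPM against 197 and 198 CPM (−2.80 ± 0.07), and *Bmp4* 8.23 and 7.82 CPM against 43.5 and 47.2 CPM (−2.63 ± 0.11). *Inhba* had 14.8 and 15.3 CPM against 78.8 and 85.8 CPM (−2.58 ± 0.08). *Inhbb* had 1.09 and 2.43 CPM against 5.30 and 5.33 CPM (−1.70 ± 0.29), and this value was −1.25 without the first and −2.39 without the second A-485 library. No A-485 library overlapped a control in any of the 6. The share of all genes without overlap was not computed, so nothing is read from this. All 6 were called lower and 0 higher, beside 33.0% lower and 11.5% higher of 16009 genes.

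For *Inhba* the log2 fold change after 1 h of A-485 (−2.58 ± 0.08) and after 4 h of IAA (−2.56 ± 0.08) were close in size. For *Tgfbr3*, *Tgfb2* and *Bmp4* the values after A-485 were deeper (−3.48, −2.80 and −2.63 against −1.60, −1.26 and −0.90), and for *Smad7* they had opposite signs. The treatments differ in time and window and share their controls, so that these differences were not tested. The NPC marker sum was 1227 and 1565 TPM with A-485 against 2536 and 2757 TPM in controls (7 of 7 lower). The sums of the naive, neuron, astrocyte, epiblast and mesendoderm, and trophoblast lists were lower as well, without overlap. In this order 5 of 7, 3 of 4, 3 of 3, 3 of 6 and 2 of 3 markers were lower. Those higher were 2, 1, 0, 2 and 1, with *Sox17* and *Cdx2* at 0 in controls. The part of these lists in the result was not tested. The median log2 fold change of expressed genes that was subtracted was 0.12 for A-485. Counts are relative to each library, so that a fall of all RNA would not be seen.

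The difference between cell types in the effect of 4 h of IAA was computed as an interaction, NPC minus mESC, with the additional mESC libraries. *Tgfbr3* was higher in mESCs and lower in NPCs, with a difference of −2.14 ± 0.07. *Smad7* was lower in mESCs and higher in NPCs (1.301 ± 0.05). *Tgfb2* differed by −1.34 ± 0.11, with 0.08 ± 0.09 in mESCs and −1.26 ± 0.04 in NPCs. *Inhbb* differed by 1.70 ± 0.29, with −2.88 ± 0.13 in mESCs and −1.18 ± 0.23 in NPCs. With the initial mESC libraries in place of the additional ones, the *Inhbb* difference was 0.08. *Bmp4* was lower in both cell types, by −0.87 ± 0.04 and −0.90 ± 0.08, with a difference of −0.02 ± 0.09. *Inhba*, *Nodal*, *Gdf3*, *Lefty1* and *Lefty2* were at or near 0 in one of the cell types, and no fold is read there. Over 17538 genes, 11.5% had a lower and 6.79% a higher change in NPCs, and among the 10 genes 3 and 2 did. The 3 were *Tgfbr3*, *Tgfb2* and *Inhba*, and for *Inhba* no fold is read. Cell type and batch cannot be told apart.

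After 6 h of CTCF depletion in CTCF AID mESCs *Tgfbr3* was higher and *Bmp4* lower. *Tgfbr3* had 60.1 and 46.7 CPM in the unstranded and 57.5 and 48.3 CPM in the stranded controls. After IAA it had 225.96 and 200.9 CPM in the unstranded and 251 and 133 CPM in the stranded libraries. All IAA libraries were above all controls, and the log2 fold change was 1.96 ± 0.20, or 3.89-fold higher. *Bmp4* had 13.8, 14.9, 12.5 and 14.5 CPM in controls and 9.88, 8.59, 8.55 and 7.35 CPM after IAA. Again the groups did not overlap, with a log2 fold change of −0.67 ± 0.13. This call was lost when any one library other than the stranded IAA library numbered 2 was left out and within each library type. Among stranded libraries alone *Tgfbr3* was not called either (1.88). Both genes were also called in the same direction after RAD21 depletion in the additional experiment, with smaller size for *Tgfbr3* (0.54 ± 0.03) and similar size for *Bmp4* (−0.87 ± 0.04). The lines and times differ, and the difference was not tested.

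*Nodal* had 68.2, 75.9, 71.9 and 74.3 CPM in controls and 47.0, 57.2, 50.1 and 80.5 CPM after IAA. The highest IAA value was the stranded library numbered 2, and the log2 fold change was −0.28 ± 0.15. Without the stranded libraries numbered 2 it was −0.45 and called. *Lefty1* had 0.936 to 5.47 CPM in 3 controls and 18.5 CPM in the control numbered 2 of the stranded type, and 1.86 to 6.38 CPM and 40.04 CPM in the matching IAA libraries. *Lefty2* had 10.1 to 26.0 and 53.5 CPM in controls, and 6.92 to 15.3 and 72.4 CPM after IAA. These 2 libraries had the highest NPC marker sums of the experiment (211 and 247 TPM against 113 to 146 TPM). The markers of this list did not move together. *Vim* had 158 and 167 TPM against 63.8 to 87.9 TPM, and *Nes* 42.6 and 66.6 TPM against 28.2 to 45.2 TPM. *Pax6* had 0.136 and 0.113 TPM against 0.121 to 0.657 TPM, and *Slc1a3* 4.14 and 4.37 TPM against 3.57 to 5.49 TPM. *Fabp7* had no count in any library of the experiment. Over the experiment the 3 trophoblast markers summed to 69.5 to 95.5 TPM in controls and 97.5 to 151 TPM after IAA (2 of 3 higher), and the 6 epiblast and mesendoderm markers to 16.9 to 26.0 TPM and 22.5 to 42.0 TPM (5 of 6 higher). The part of these lists in the results of CTCF AID cells was not tested. *Lefty1* (0.66 ± 0.98), *Lefty2* (−0.13 ± 0.74), *Gdf3* (0.26 ± 0.12), *Tgfb2* (−0.17 ± 0.15) and *Smad7* (0.09 ± 0.22) were not called. *Inhbb* had 7 to 26 counts in any of these libraries and *Inhba* 0 to 3, and neither was tested.

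Thus 1 gene of 8 was called lower and 1 higher, beside 1.79% and 1.56% of 15611 genes. Samples with the same number and library type deviated together, and with this pairing as a block 5.00% of genes were called lower and 9.10% higher. *Tgfbr3* (1.92 ± 0.09) and *Bmp4* (−0.68 ± 0.12) were then called again. *Lefty1* was called higher in this fit (0.70 ± 0.21), which made 1 lower and 2 higher. Without the block, its value was between −0.69 and 1.39 when single libraries were left out.

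In the CTCF YF-AA line no gene of the group was called. *Tgfbr3* had 90.9 and 79.8 CPM in controls, 99.0 and 95.9 CPM after 2 h and 102 and 102 CPM after 4 h of dTAG-13. All treated libraries were above the controls, and the log2 fold changes were 0.22 ± 0.09 and 0.29 ± 0.08, both below 1.3-fold. *Nodal* had 114 and 102 CPM in controls, 82.6 and 93.1 CPM after 2 h and 89.7 and 85.9 CPM after 4 h, with log2 fold changes of −0.25 ± 0.09 and −0.27 ± 0.08. *Inhbb*, higher in these controls than in those of the other mESC lines, had 25.4 and 35.4 CPM in controls and 23.5 to 28.8 CPM after dTAG-13 (−0.29 ± 0.15 at 2 h and −0.30 ± 0.14 at 4 h). Without the first control it was called lower at 4 h (−0.46). The 2 times share their controls. edgeR and DESeq2 each called 0 of the 7 genes at either time. Over all genes, 1.92% were lower and 0.778% higher of 14009 at 2 h, and 2.31% and 1.02% of 14280 at 4 h. The first control library held 4027449 counts, the lowest depth of the series.

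In the line with dN and dC CTCF, *Tgfbr3* was higher with AGB1, which degrades dN. It had 209 and 205 CPM in controls and 304 and 319.8 CPM after AGB1 (log2 fold change 0.60 ± 0.05). With AGB1 and dTAG-13 together it had 309 and 290.2 CPM (0.53 ± 0.06). With dTAG-13 alone, which degrades dC, it had 217 and 223 CPM (0.09 ± 0.05). These 3 treatments share their controls, and the differences between them were not tested. *Nodal* had 74.4 and 77.6 CPM in controls and 58.7 and 59.1 CPM with both agents (−0.37 ± 0.07), just under 1.3-fold and past it without the first control (−0.39), and 69.9 and 72.5 CPM with AGB1 (−0.09 ± 0.07). *Smad7* had 651 and 618 CPM in controls and 725 and 723 CPM with AGB1 (0.20 ± 0.05), again below 1.3-fold.

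*Tgfbr3* was the 1 gene of 7 called higher with AGB1 and with both agents, and none was called lower. Over all genes, 1.03% were lower and 0.411% higher of 13619 with AGB1, 2.60% and 0.909% of 13753 with both agents, and 0% and 0.0587% of 13618 with dTAG-13. With dTAG-13 edgeR and DESeq2 each called 0 of the 7. *Lefty1* and *Lefty2* had at most 12 counts in any library of this line and at most 11 in the CTCF YF-AA line, and were not tested in either.

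**Figure D4:**
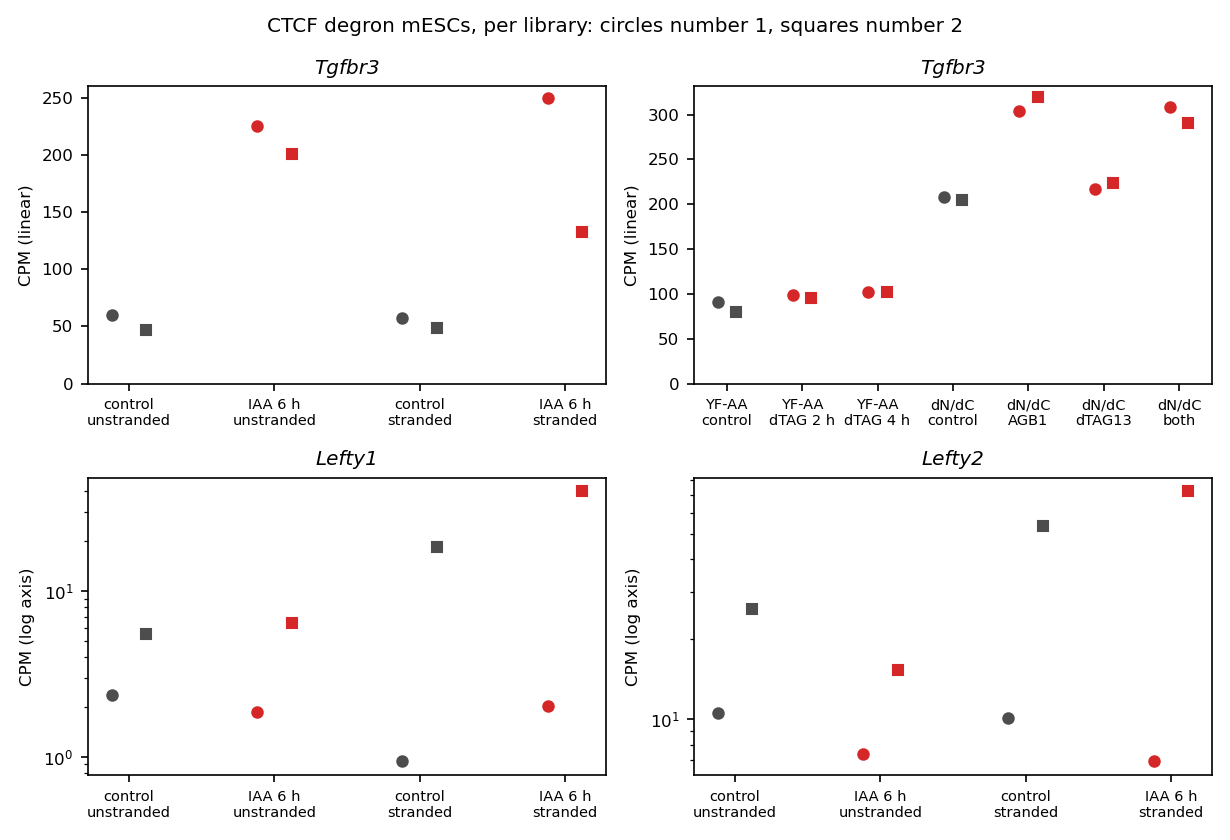
CPM of *Tgfbr3* (linear axis), *Lefty1* and *Lefty2* (log axis) in each library of CTCF AID mESCs, and of *Tgfbr3* in the CTCF YF-AA and the dN and dC lines, with circles for number 1 and squares for number 2. *Tgfbr3* lies higher in all 4 CTCF AID libraries after IAA and after AGB1, and the stranded libraries numbered 2 stand above the others in *Lefty1* and *Lefty2* with and without IAA.

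The other genes of these pathways, 87 listed by role of which 83 were in the count table, were tested in the same fits. In the additional mESC experiment 55 were tested. Of these 9 (16.4%) were called lower and 6 (10.9%) higher, beside 4.84% and 7.44% of all genes tested. Their median log2 fold change was −0.06, beside 0.03 over all genes tested. *Fst*, which encodes the activin-binding antagonist follistatin, fell from 6.40 ± 0.526 CPM to 1.303 ± 0.255 CPM (SD, n = 12; log2 fold change −2.27 ± 0.09, edgeR adjusted p = 9.66e-28). *Id3*, a BMP target, fell from 25.5 ± 1.59 to 8.86 ± 2.15 CPM (−1.52 ± 0.06, adjusted p = 6.28e-27). *Tgfbr2*, the type II TGF-beta receptor, fell from 46.4 ± 2.45 to 29.0 ± 1.53 CPM (−0.67 ± 0.03, adjusted p = 1.23e-24). *Rgma*, a BMP co-receptor, rose from 59.5 ± 1.46 to 96.1 ± 3.75 CPM (0.70 ± 0.02, adjusted p = 1.62e-31), and *Tgfb3* rose at a low level from 0.976 ± 0.202 to 1.65 ± 0.397 CPM (0.75 ± 0.14, adjusted p = 1.67e-05). Of the others called, named after their values were seen, *Tgfb1*, *Bmp8a*, *Bmp15*, *Chrd*, *Smad6* and *Tgif1* were lower (−0.42 to −0.58) and *Bmp6*, *Smad9*, *Id2* and *Msx2* higher (0.41 to 0.64).

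In the initial mESC experiment 50 of these genes were tested (median 0.03, beside 0.01 over all genes). Of these 2 (4%) were called lower and 3 (6%) higher, beside 2.61% and 2.13% of all genes. *Tgfbr2* was lower (−0.50 ± 0.10, adjusted p = 6.99e-05), as was the type I receptor gene *Acvr1b* (−0.38 ± 0.08, adjusted p = 0.000147). *Pmepa1*, a TGF-beta target and inhibitor, rose from 38.2 to 51.3 CPM (0.43 ± 0.09, adjusted p = 0.000287). *Bmp6* was at the threshold (0.40 ± 0.14, adjusted p = 0.0496).

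In NPCs 63 of these genes were tested at each time. After 1 h of IAA 1 (1.59%) was called lower and 3 (4.76%) higher, beside 2.74% and 2.35% of all genes. The median was −0.03, the same as over all genes. *Bmp2* rose from 9.43 ± 1.28 to 25.2 ± 1.64 CPM (SD, n = 2; 1.402 ± 0.12, edgeR adjusted p = 3.13e-08), *Smad3* from 152 ± 1.897 to 224 ± 7.93 CPM (0.53 ± 0.04, adjusted p = 6.37e-09) and *Atoh8*, a BMP target, from 18.1 ± 2.85 to 30.6 ± 2.58 CPM (0.74 ± 0.11, adjusted p = 3.07e-05). *Ltbp1*, which stores latent TGF-beta in the matrix, was lower (−0.39 ± 0.12, adjusted p = 0.0382). After 2 h 10 (15.9%) were called lower and 1 (1.59%) higher, beside 6.98% and 2.36% of all genes. The median was −0.04, the same as over all genes. *Gdf10* (−0.92 ± 0.18, adjusted p = 0.00703), *Rgmb* (−0.68 ± 0.06, adjusted p = 6.53e-05) and *Ltbp1* (−0.61 ± 0.07, adjusted p = 0.000537) fell.

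After 4 h 16 (25.4%) were called lower and 4 (6.35%) higher, beside 10.5% and 6.20% of all genes. The median was −0.06, beside −0.02 over all genes. *Gdf10*, a BMP-related ligand, fell from 8.16 ± 0.164 to 1.66 ± 0.0693 CPM (−2.33 ± 0.20, adjusted p = 6.35e-11). *Bmp5* fell from 98.6 ± 1.15 to 42.6 ± 2.15 CPM (−1.25 ± 0.05, adjusted p = 2.54e-18), *Ltbp1* from 62.6 ± 1.92 to 27.0 ± 0.680 CPM (−1.25 ± 0.06, adjusted p = 2.74e-16) and the BMP co-receptor gene *Rgmb* from 198 ± 1.16 to 110.5 ± 3.55 CPM (−0.88 ± 0.04, adjusted p = 2.97e-17). *Sostdc1*, a BMP antagonist, fell from 1.21 to 0.418 CPM (−1.55 ± 0.44, adjusted p = 0.00648). Named after their values were seen, *Bmp2* (−0.64), *Tgfbr2* (−0.60), the type I receptor gene *Bmpr1b* (−0.82), *Rgma* (−0.62), *Smad9* (−0.79), the inhibitors *Smad6*, *Bambi* and *Pmepa1* (−0.49 to −0.64) and the BMP targets *Id1*, *Id3* and *Atoh8* (−0.54 to −0.80) were lower as well. *Fst* (0.41), *Chrd* (0.43), *Tgif1* (0.57) and *Bmp6* (0.41) were higher.

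A-485 lowered 47 of 62 (75.8%) and raised 3 (4.84%), beside 33.0% called lower and 11.5% higher of all genes tested. The median was −1.20, beside −0.11 over all genes tested. The deepest fall was that of *Bmp5*, from 88.6 ± 1.34 to 4.27 ± 0.583 CPM (−4.49 ± 0.10, edgeR adjusted p = 5.76e-15). *Smad6*, the BMP-selective counterpart of *Smad7*, fell from 49.8 ± 2.06 to 4.43 ± 0.560 CPM (−3.62 ± 0.12, adjusted p = 3.45e-13), *Rgma* from 290 ± 1.81 to 28.8 ± 5.84 CPM (−3.45 ± 0.10, adjusted p = 4.16e-14) and *Atoh8* from 18.1 ± 2.85 to 1.87 ± 0.547 CPM (−3.38 ± 0.21, adjusted p = 8.8e-10). *Sostdc1* was lower on few counts (−4.02 ± 0.71, adjusted p = 0.000174). All 6 SMAD target genes tested and all 6 type I receptors were called lower, whereas 4 of 7 SMAD and partner genes were. The 3 genes called higher, named after their values were seen, were *Bmp8a* (0.93), *Bmp8b* (0.64) and *Amh* (0.49).

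**Figure D5:**
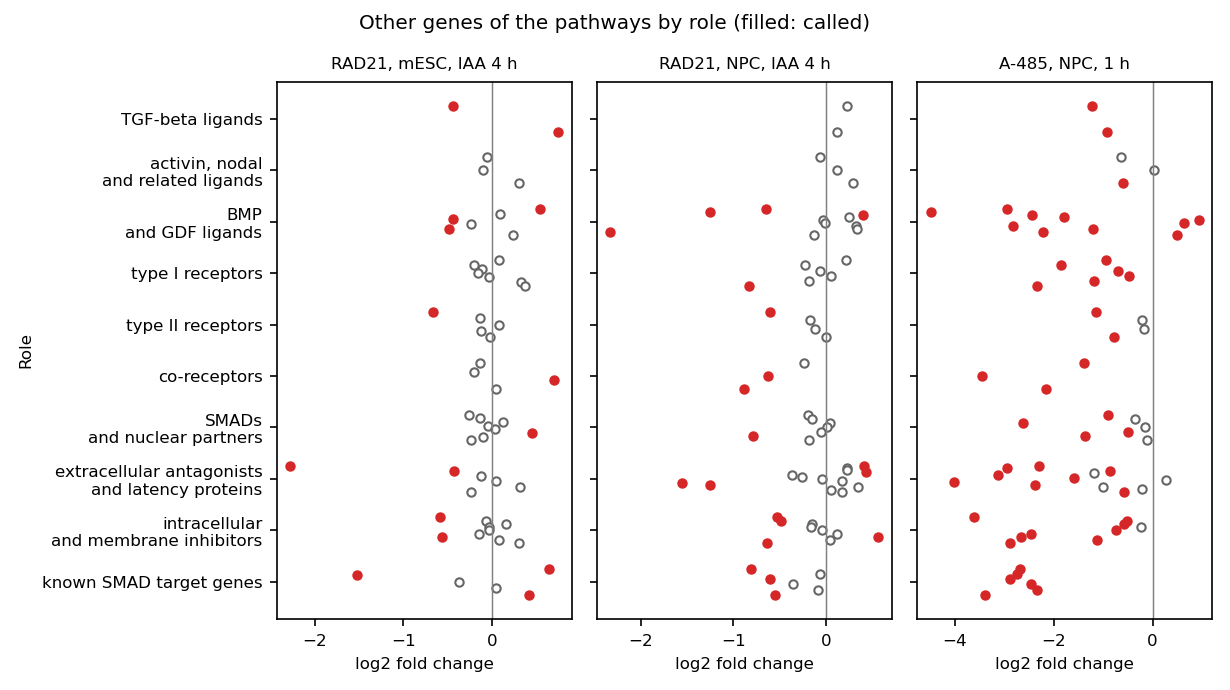
Log2 fold change of the other pathway genes, grouped by role, after 4 h of RAD21 depletion in mESCs and in NPCs and after 1 h of A-485 in NPCs, with called genes filled in red. Calls lie on both sides of 0 in mESCs, mostly below 0 in NPCs after IAA (16 lower, 4 higher) and with A-485 (47 lower, 3 higher).

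After CTCF AID depletion 54 were tested, with *Fst* lower and *Rgma* higher (1.85% each, beside 1.79% and 1.56% of all genes). *Fst* went from 17.1 ± 1.84 to 7.10 ± 1.79 CPM in unstranded and from 11.8 ± 1.41 to 5.73 ± 1.495 CPM in stranded libraries (SD, n = 2 each; −1.13 ± 0.18, edgeR adjusted p = 0.013). *Rgma* went from 97.7 ± 12.6 to 145 ± 20.8 CPM and from 89.3 ± 3.10 to 143 ± 2.48 CPM (0.65 ± 0.09, adjusted p = 0.00985). Both had the same direction as after RAD21 depletion in mESCs. With the pairing as a block 4 were called lower and 5 higher, beside 5.00% and 9.10% of all genes. They are named after their values were seen. *Fst*, *Ltbp1*, *Id3* and *Tgfb1* were lower (−0.62 to −1.15) and *Rgma*, *Bmp6*, *Tgfbr2*, *Ltbp3* and *Msx2* higher (0.62 to 1.29). *Tgfbr2* was lower after RAD21 depletion and higher here (0.73 ± 0.12, adjusted p = 0.0011).

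In the other CTCF lines few were called, and the shares called over all genes are those given above for each treatment. At 2 h of dTAG-13 in CTCF YF-AA cells edgeR called 0 of 47, with 8 at an unadjusted p under 0.05, and DESeq2 called 0. At 4 h the stress-responsive ligand gene *Gdf15* fell from 8.85 ± 1.502 to 3.88 ± 0.511 CPM (SD, n = 2; −1.21 ± 0.30, adjusted p = 0.00539), the 1 called of 48. With AGB1 edgeR called 0 of 46, with 7 at an unadjusted p under 0.05, and with dTAG-13 0 of 44, with 2, while DESeq2 called 0 and 0. With both agents *Twsg1*, a modulator of BMP binding, fell from 37.7 ± 2.57 to 28.5 ± 2.32 CPM (−0.40 ± 0.10, adjusted p = 0.0101), the 1 called of 45.

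The nearest tested genes on either side of each member, 20 a comparison, were mostly not called after RAD21 depletion. *Gm15217*, whose start lies 11.2 kb from that of *Bmp4* and which overlaps 1.24% of *Bmp4* on the other strand, was lower in mESCs (−0.77 ± 0.11, adjusted p = 1.24e-08) and in NPCs (−1.04 ± 0.17, adjusted p = 2.06e-05). Whether the counts used strand is not given in the sources used here, and if they did not, reads in the overlap cannot be told apart. In mESCs *4933425B07Rik*, 247 kb from *Bmp4*, was higher (0.39 ± 0.15, adjusted p = 0.0252). In NPCs *Rrp15*, 43.4 kb from *Tgfb2* (−0.45 ± 0.08, adjusted p = 6.37e-05), and *Dym*, 349 kb from *Smad7* (−0.46 ± 0.05, adjusted p = 3.33e-09), were lower, the latter against the direction of *Smad7*. The genes next to *Inhba*, *Inhbb* and *Tgfbr3* were not called in either cell type. For *Inhbb* these were *Ralb*, 82.5 kb away (0.12 ± 0.03 in mESCs), and for *Inhba* *Gli3*, 548 kb away (−0.33 ± 0.04 in NPCs).

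Genes whose log2 CPM moved most like that of *Inhbb* over the 50 mESC libraries, as deviations from the control mean of the same line and experiment, were *Slc29a1* (Pearson r = 0.944), *Sema7a* (0.939) and *Nfkb1* (0.933), out of 14614 genes. For *Inhba* over the 10 NPC libraries they were *Gdf10* (0.991), *Magel2* (0.989) and *Ccdc85a* (0.987), out of 15775 genes. The libraries share their controls and treatments, so that these values describe a pattern and are not tested.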

How the data were processed

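EU-seq, a measurement of nascent RNA, was made by the authors in 60 libraries. Reads were trimmed with cutadapt and aligned to the mm10 mouse genome with BWA, reads of low mapping quality were removed with SAMtools 1.4 and rRNA and tRNA reads with bedtools, and reads were counted over gene bodies. The deposited values are whole-number counts per transcript, one table for all libraries, and 6 of its 62 count columns stop 90 kb into a gene (the NPC controls, IAA 1 h and A-485). Whether the counting used strand is not given in the sources used here. Library totals were 4027449 to 21898781 counts, and a gene with few counts is less precise. The study describes the EU-seq replicates of its CTCF depletion experiments as biological. For the RAD21 and A-485 libraries this was not found in the sources used here, so that the spread between them may be technical. No pair of libraries agreed within sampling noise.

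Counts were tested with edgeR 4.0.16 (R 4.3.3; quasi-likelihood F test, two-sided, TMM) for genes whose mean count exceeded 20 in 1 group or more, with only the groups compared in each fit. The CTCF AID fit also held the library type. The median log2 fold change of expressed genes (TPM above 15) was subtracted, and p values were adjusted by Benjamini-Hochberg over all genes tested. SEs were taken from the log2 fold change and the F value. Called genes differed by 1.3-fold or more at an adjusted p below 0.05. Procedures were tested on simulated data. Alternatives were DESeq2 1.42.0, RLE size factors, no filter, no centring, the replicate number as a block, batch, and leaving out libraries. For CTCF AID, libraries with the same number and type deviated together (4 pairs, r = 0.476 to 0.814), and the pairing comes from this check, since the labels do not state it. In no other comparison with 3 or more pairs was every correlation above 0.1. With 2 pairs both correlations have the same value, so that the check cannot settle a pairing there. This value was 0.134 in NPCs after 2 h of IAA and below 0.1 in the other comparisons with 2 pairs.

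The members and gene lists were chosen with earlier results of these data known, and no p value is given for the 10 members. Named in the text are the 10 members, up to 5 other pathway genes with the largest called change per comparison, the nearest tested gene on either side of each member, and the 3 genes most like *Inhbb* and *Inhba* (log2 of CPM plus 0.5). Other names were chosen after their values were seen. Some genes included in the counts are not reported here by name.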

Additional observations from a re-analysis of the deposited data

Results flagged for a closer look

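The change after 4 h of IAA differed between NPCs and mESCs for 16 of 48 other genes of these pathways that were counted in both cell types (9 with a lower and 7 with a higher change in NPCs), by edgeR's test of the interaction. Over all 17538 genes tested, 11.5% had a lower and 6.79% a higher change in NPCs. These 17538 include genes counted in only 1 cell type. Without the limit to both cell types, 10 (14.3%) of 70 other pathway genes had a lower and 9 (12.9%) a higher change. The share over all genes counted in both cell types was not computed. Differences are log2 fold change in NPCs minus that in the additional mESC libraries. Among the 10 genes described above that were counted in both cell types, the differences past the same threshold were those of *Tgfbr3* (−2.14), *Inhbb* (1.70), *Tgfb2* (−1.34) and *Smad7* (1.301), which were chosen with these results known and carry no p value.

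Among the antagonists and latency proteins, *Fst* differed by 2.70 (edgeR adjusted p = 2.38e-18), with −2.27 in mESCs and 0.41 in NPCs. *Ltbp1* differed by −1.29, *Chrd* by 0.86 and *Ltbp4* by 0.42. Among co-receptors and receptors, *Rgma* differed by −1.32 (adjusted p = 2.72e-29), with 0.70 in mESCs and −0.62 in NPCs, *Rgmb* by −0.92 and *Bmpr1b* by −1.14. Among ligands, *Tgfb1* differed by 0.68, *Tgfb3* by −0.62 and *Gdf11* by 0.40. Among SMADs and inhibitors, *Smad9* differed by −1.23 (0.45 in mESCs and −0.79 in NPCs), *Tgif1* by 1.14 (−0.57 and 0.57), *Pmepa1* by −0.93 and *Bambi* by −0.41. The target genes *Id3* and *Id2* differed by 0.92 and −0.70. Cell type and batch cannot be told apart in any of these.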

How the results depend on the processing

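Of 884 alternative values of the 10 genes, 856 kept their call or lack of a call, and those called kept their direction. For genes not called the direction was not part of this count. That of *Lefty1* in CTCF AID cells changed, for example, with −0.69 to 1.39 when single libraries were left out. *Inhba* reversed in the difference between NPCs and mESCs with the initial mESC libraries (1.09), where its mESC counts were at or near 0, and *Inhbb* was then 0.08. Of 122 alternative counts of other pathway genes called, 98 were within 1.5 times the reported count, and 24, in 6 of the 13 comparisons, were not. The cause was not tested. In the initial mESC experiment (5 called) DESeq2 gave 2, and leaving out single libraries gave 1 to 4. For CTCF AID (2 called) the replicate block gave 9, unstranded libraries only 4, stranded only 0, all but the stranded libraries numbered 2 gave 6 (chosen after seeing the data), and leaving out single libraries 1 to 4. At 2 h in CTCF YF-AA cells (0 called) RLE size factors gave 1. At 4 h (1 called) DESeq2 gave 0, and leaving out single libraries 0 to 1. With both agents in the dN and dC line (1 called) DESeq2 gave 0, RLE 2, no filter 2, the replicate block 2, and leaving out single libraries 0 to 2. The difference between cell types (19 called) gave 9 with the initial mESC libraries and 16 to 20 without single NPC libraries. Apart from those named, the replicate block changed no call of the 10 genes and no count by over 1.5 times. In the additional mESC experiment 1 of 12 pairs correlated above 0.1, so that the numbers do not pair the libraries. With 2 libraries a group, changes near 1.3-fold depend on single libraries, and genes with few counts, such as *Inhbb* in the initial experiment, could not be tested.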
